A study of Homo sapiens with 4 samples.

Results

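The comparison of 2 SKOV3 clones with mesenchymal (M) phenotype against 2 with epithelial (E) phenotype listed 20986 regions of 1000 bp, called tiles here, whose DNA methylation differed. All of them are described, out of 72455 distinct tiles listed in any of the 3 comparisons made from the same libraries. SKOV3 is a long-established line of human ovarian cancer cells, and LY75 is an endocytic receptor of the mannose receptor family. The M side held shC-S, which carries a control shRNA, and LY75-R-S, made from LY75 shRNA cells by adding LY75 cDNA that the shRNA cannot target (titled Ly75-OV-S in the labels). The E side held sh-LY75-S, with LY75 suppressed by shRNA, and LY75-KO-S, with LY75 inactivated by CRISPR. The same libraries also make up the knockdown pair, shC-S against sh-LY75-S, and the knockout pair, LY75-R-S against LY75-KO-S, here the 2 single comparisons. Each clone was 1 library, so differences between clones and differences between conditions cannot be told apart, and no replicate error can be given. LY75-R-S and sh-LY75-S share the LY75 shRNA, for which the labels of shC-S and LY75-KO-S give no sign. The deposited tables give methylation differences and no expression, so the M and E labels could not be checked here against the level of any marker gene. From earlier work, the paper reports that LY75 depletion in SKOV3 induced the epithelial marker E-cadherin. It also reports loss of mesenchymal markers, N-cadherin and TWIST1 among them.

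DNA methylation in mammals sits mainly on the cytosine of the CpG dinucleotide, and CpGs cluster in CpG islands, many of which lie at transcription start sites (TSSs). Methylation of such an island is commonly found with a silent gene, while the genes of embryonic patterning are often kept silent by Polycomb proteins on unmethylated islands and tend to gain methylation in cancer cell lines. In reduced representation bisulfite sequencing (RRBS), DNA is cut with MspI at the letters CCGG and short fragments are converted with bisulfite, so that CpG-rich DNA is read preferentially. Epithelial-mesenchymal transition (EMT) is the loss of cell-cell adhesion and gain of motility that the M and E phenotypes stand for.

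Stretches of the reference show what kind of DNA these tiles hold, with each CpG, the letters that can carry the methylation, in capitals (GRCh37, plus strand, 5′ to 3′). Which of these CpGs were read is not given. The first 2 come from the promoter tiles with the largest hypermethylation among those with the smallest q-values, the next 2 from the hypomethylated ones (ZNF292, between them in rank, had no such stretch and is not shown), and the last 2 from tiles that neither comparison of a single pair of clones listed. Each is the stretch of 100 bases with the most CpGs that holds an MspI site and lies outside every annotated untranslated region of its tile.
HEYL chr1:40105426-40105525: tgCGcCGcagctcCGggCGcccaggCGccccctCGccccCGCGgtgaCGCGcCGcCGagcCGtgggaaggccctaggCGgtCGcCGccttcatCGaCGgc
PRRT1B chr9:134420741-134420840: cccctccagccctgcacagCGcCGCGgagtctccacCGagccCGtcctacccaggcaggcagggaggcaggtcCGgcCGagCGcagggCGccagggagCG
UCHL1 chr4:41258821-41258920: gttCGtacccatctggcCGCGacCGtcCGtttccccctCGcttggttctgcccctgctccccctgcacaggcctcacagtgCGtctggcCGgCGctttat
RAC3 chr17:79988526-79988625: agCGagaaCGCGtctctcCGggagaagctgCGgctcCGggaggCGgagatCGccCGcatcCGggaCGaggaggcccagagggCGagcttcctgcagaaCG
RBMS1 chr2:161263871-161263970: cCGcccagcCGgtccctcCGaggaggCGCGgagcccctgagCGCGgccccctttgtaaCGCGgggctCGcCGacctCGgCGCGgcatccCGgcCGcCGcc
SERPINE2 chr2:224904171-224904270: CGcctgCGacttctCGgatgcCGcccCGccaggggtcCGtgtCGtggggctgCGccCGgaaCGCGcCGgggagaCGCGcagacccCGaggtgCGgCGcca

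In these stretches 9 to 18 CpGs stood in 100 bases, with 9 in that of UCHL1 and 18 in that of HEYL. The whole tiles held 37 CpGs (UCHL1), 54 (PRRT1B and RBMS1), 82 (SERPINE2), 92 (HEYL) and 99 (RAC3), against a median of 19 CpGs over all listed tiles.

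Of the 20986 tiles, 13639 were hypermethylated in the E clones (64.99%, 95% Wilson interval 64.3 to 65.6%) and 7347 were hypomethylated. The value of a tile is the difference in percent methylation, E minus M, in percentage points (points below). The tables do not state the order of subtraction, which was read from genes of stated direction, 7 of 7 with a listed promoter tile. The median absolute difference was 36.9 points, with quartiles of 29.9 and 47.9, so that most listed tiles shifted by a part of the possible range. The limit for listing was 25 points and q under 0.01, and 5302 tiles (25.3%) lay below 30 points. At 50 points or more 4531 tiles remained, 3075 of them hypermethylated, and 102 tiles had the full difference of 100 points, 72 of them hypermethylated. Both directions had like sizes, with medians of 37.3 points for hypermethylated and -36.1 for hypomethylated tiles. The q-values come from reads of single libraries and compare libraries, and the intervals given here cover counting error only; tiles near each other can change together. RRBS fragments of 40 to 220 bp can reach 371631 tiles of the reference with reads of 50 bp, and 5.20% of these tiles were listed (19332), while 1654 listed tiles (7.88%) lay outside this computed set.

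The tiles of this comparison were also sought in the tables of the single pairs, which are made from the same libraries and are therefore not independent of it. The same tile was listed in both single comparisons in 4250 cases, in the knockdown pair alone in 12801, in the knockout pair alone in 2660, and in neither in 1275 (6.08%). Tiles listed in both single comparisons had the largest differences with all clones together, a median of 45.4 points. The median was 36.1 for those of the knockdown pair alone, 33.4 for those of the knockout pair alone and 31.3 for those in neither. Passing the limits in the pairs defines these classes, so this order follows in part from how they were chosen. For the tiles of the knockdown pair alone the median absolute difference in that pair's own table was 65.3 points, and for those of the knockout pair alone it was 49.3 points in that pair's own table. The hypermethylated share was 65.6% (64.2 to 67.01%) for tiles in both, 67.4% (66.6 to 68.3%) for the knockdown pair alone, 57.6% (55.7 to 59.5%) for the knockout pair alone and 53.6% (50.9 to 56.4%) for neither.

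**Figure D1:**
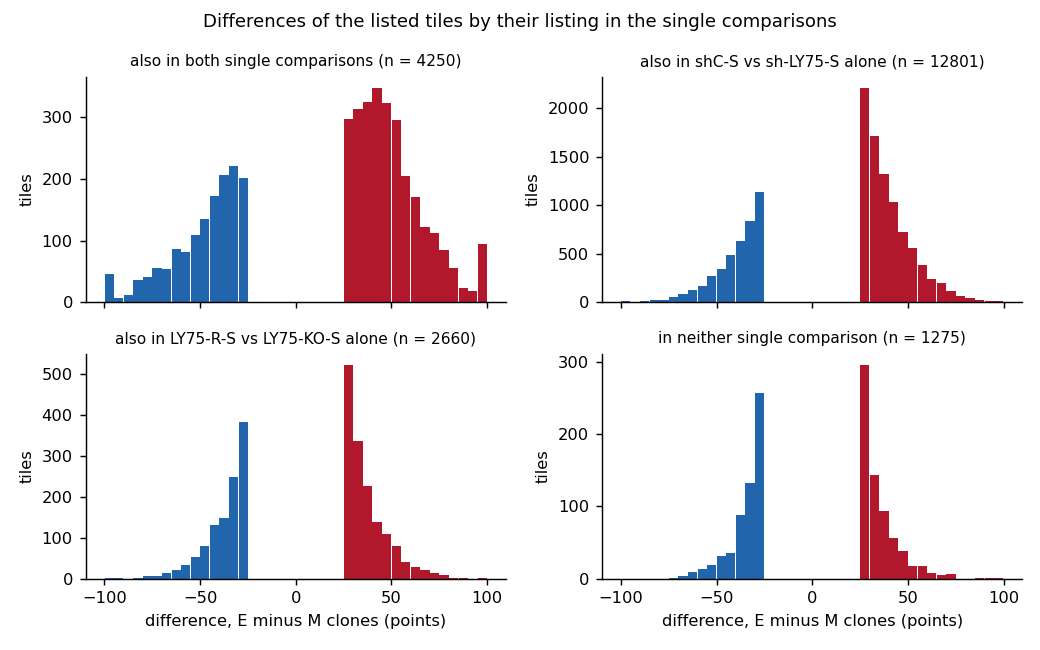
Number of tiles by methylation difference, E minus M clones in percentage points, in intervals of 5 points, for tiles also listed in both single comparisons, in 1 of them or in neither. Bars in red are hypermethylated and in blue hypomethylated in the E clones; the gap between -25 and 25 points is the limit for listing, and the 1275 tiles in neither lie nearest to it.

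Listed tiles lay on every chromosome. On the autosomes and X the listed share of reachable tiles ran from 4.29% (3.95 to 4.67%) on chromosome 15 to 6.61% (6.15 to 7.10%) on chromosome 20, with 6.54% on chromosome 21. The hypermethylated share was 55.8% (52.3 to 59.2%) on chromosome 4, 56.4% (52.0 to 60.8%) on chromosome 18 and 58.7% on chromosome 13, all gene-poor chromosomes. At the other end it was 73.1% (69.4 to 76.4%) on the gene-rich chromosome 22, 70.9% (67.3 to 74.2%) on chromosome 14 and 70.01% (66.97 to 72.9%) on X. Within 2 Mb of a chromosome end 7.02% of reachable tiles were listed and 70.4% of them were hypermethylated, against 5.05% and 64.4% farther inside. The tiles near the ends held more CpGs, with a median of 31 against 18.

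**Figure D2:**
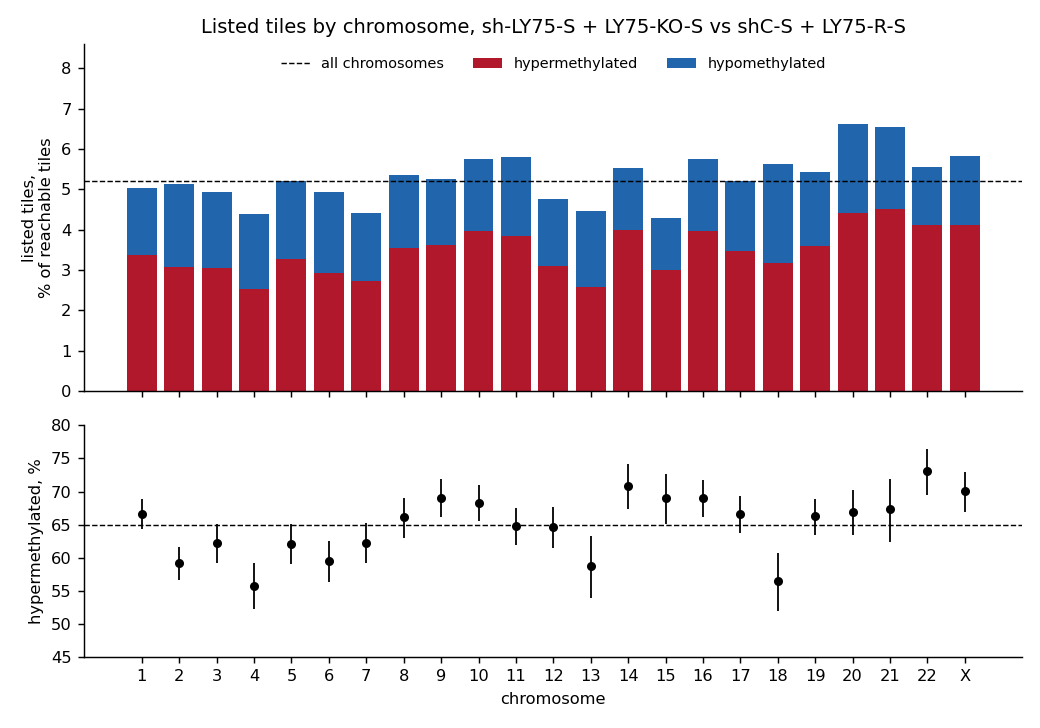
Top, listed tiles as a percentage of the tiles that RRBS fragments can reach on each chromosome, split into hypermethylated (red) and hypomethylated (blue) in the E clones; the dashed line is the value over all chromosomes, 5.20%. Bottom, hypermethylated share of the listed tiles with 95% Wilson intervals, lowest on chromosome 4 and highest on chromosome 22; the axis starts at 45%, and the dashed line is the share over all listed tiles.

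On X, listed tiles were more frequent in promoters. Of the reachable promoter tiles 11.3% (9.98 to 12.8%) were listed, and 161 of all 220 listed X promoter tiles were hypermethylated (73.2%, 66.97 to 78.6%). On the autosomes and Y together these values were 6.29% (6.08 to 6.51%) and 54.0% (52.3 to 55.8%). Away from promoters X was like the rest, with 4.98% listed and 69.0% hypermethylated against 5.001% and 66.8%. The CpG count moved with this too, since the listed X promoter tiles held a median of 47 CpGs and the other listed promoter tiles 37, and its part was not tested. X promoters were singled out after their values had been seen.

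Listed tiles were dense in several windows of 1 Mb, chosen here by their counts. The window chr9:138000001-139000000 held 81 listed tiles of 539 reachable, 75 of them hypermethylated, and chr14:104000001-105000000 held 51, of which 49 were hypermethylated. Of the 188 windows with 20 or more listed tiles, 176 had mostly hypermethylated and 12 mostly hypomethylated tiles. The lowest hypermethylated share was in chr6:1000001-2000000, where 19 of 25 tiles were hypomethylated. This window holds a cluster of forkhead transcription factor genes, FOXQ1, FOXF2 and FOXC1, each with a hypomethylated promoter tile (-30.6, -65.0 and -39.0 points). Hypomethylated tiles in the window chr4:7000001-8000000 were 18 of 24.

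Adjacent tiles of the same direction formed 820 runs of 2 or more, covering 1704 tiles (8.12%). The longest was hypermethylated, 5 tiles at chr17:75278001-75283000 in SEPTIN9, which codes for a cytoskeletal GTP-binding protein. Its differences were 55.5, 29.7, 27.3, 75.5 and 66.9 points in order along the chromosome, and all 5 tiles were listed in the knockdown pair while 2 were listed in the knockout pair. The longest hypomethylated runs had 4 tiles. The first lay in PMEPA1, a target and inhibitor of TGF-β signalling (chr20:56224001-56228000, mean -43.3 points). Its tiles had -33.1, -51.5, -51.3 and -37.2 points, and the last of these was listed in neither single comparison. The other lay at chr10:21796001-21800000 in no protein-coding gene (mean -42.7 points), with all 4 tiles listed in the knockdown pair and none in the knockout pair. Runs of 3 tiles of hypomethylation included IFFO1, IRX5, TBX2, NKX1-1, DLX2 and OTP, and hypermethylated ones included FOXA2 and KCNH2; these were picked from the runs of 3 after their values had been seen.

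Tiles were assigned to gene features with promoters first, a promoter being within 2 kb of a TSS of a protein-coding gene. Promoters held 3388 tiles, coding exons 1791, other exons 302, introns 5385 and intergenic DNA 10120. The listed share of reachable tiles was highest in promoters, 6.48% (6.27 to 6.70%), and lowest in introns, 4.21% (4.09 to 4.32%), with 5.61% in intergenic DNA. Direction moved the other way: promoter tiles were hypermethylated in 55.3% (53.6 to 56.9%), intergenic tiles in 68.2% (67.3 to 69.1%) and intronic tiles in 65.7% (64.4 to 66.9%). Among promoter tiles with 50 points or more, 377 of 635 were hypermethylated. Per reachable tile, hypomethylation was listed in 2.91% in promoters, 1.75% in intergenic DNA and 1.41% in introns.

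The direction changed within promoters with the distance to the TSS. Tiles that hold a TSS were hypermethylated in 66.7% (64.0 to 69.3%) of 1243 cases. Tiles from 1 bp to 1 kb away were hypermethylated in 47.0% (44.4 to 49.6%) of 1436 cases, the lowest of the distance classes, and those between 1 and 2 kb in 52.0% (48.4 to 55.7%) of 709. Beyond, the share was 63.6% from 2 to 5 kb, 70.2% from 5 to 50 kb, 65.4% from 50 to 500 kb and 54.8% (51.6 to 57.9%) beyond 500 kb. As a share of reachable tiles, hypomethylation was 2.11% at the TSS and 3.74% within the next 1 kb, while hypermethylation was 4.21% and 3.29%. Among tiles with 40 or more CpGs the contrast was the same in direction, with 66.7% (63.5 to 69.7%) hypermethylated at the TSS and 43.5% (39.6 to 47.5%) in the next 1 kb. With fewer CpGs the shares were 66.7% (61.6 to 71.4%) and 49.5% (46.1 to 52.9%). The flanks of CpG islands, known as shores, are regions where methylation commonly varies between tissues and tumours.

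**Figure D3:**
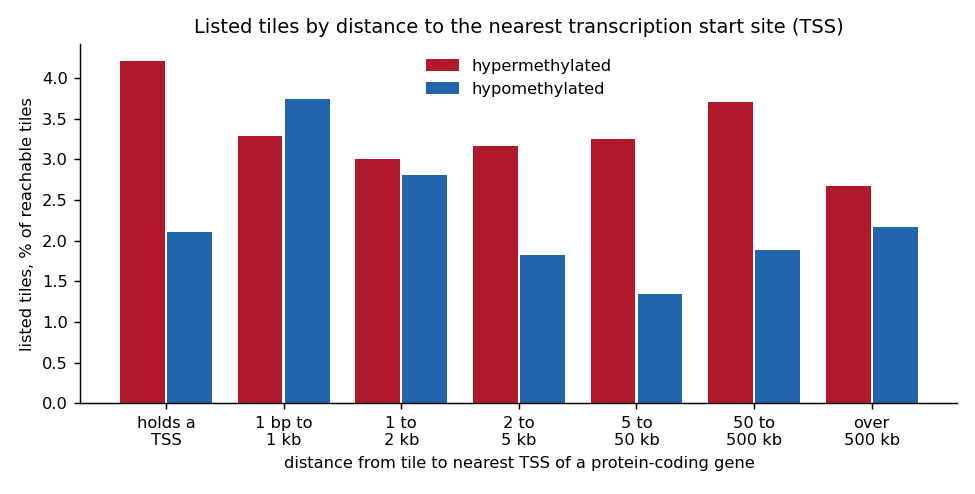
Listed tiles as a percentage of reachable tiles by distance from the tile to the nearest TSS of a protein-coding gene, hypermethylated (red) and hypomethylated (blue) in the E clones. At the TSS the values are 4.21% and 2.11%, and in the next 1 kb hypomethylation is the higher, 3.74% against 3.29%.

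The number of CpGs in a tile also moved with both measures. Tiles with 40 to 79 CpGs were listed most, 7.47% (7.20 to 7.75%) of the reachable ones, and those with 10 to 19 least, 4.53% (4.43 to 4.64%). The hypermethylated share was highest at 20 to 39 CpGs, 70.1% (69.0 to 71.1%), and lower in CpG-poor tiles with under 10, 55.8% (54.0 to 57.6%), and in CpG-dense tiles with 80 or more, 57.2% (53.4 to 60.8%). Reads per tile are not given, and their part in these shares was not tested.

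Among promoter tiles with differences of 50 points or more, the 10 per direction with the smallest q-values were named. All had q listed as 0, as further tiles did, and such ties were ordered by the size of the difference. The largest hypermethylation was at the TSS of HEYL, a repressor that Notch signalling induces (chr1:40105001-40106000, 95.8 points), and it was listed at 68.3 points in the knockdown pair and 99.9 points in the knockout pair. The others were PRRT1B (89.6 points), TRIL, a co-factor of Toll-like receptor signalling (74.97), the zinc finger gene ZSCAN23 (69.95), UGT8, which makes galactosylceramide (68.5), and the deubiquitinase USP44 (67.9). THSD7B (67.8), the adhesion protein FLRT2 (66.7), the transcription factor SOX7 (65.3) and RSPO4, a secreted Wnt agonist (62.8), completed them. Of these 10, HEYL and ZSCAN23 were listed in both single comparisons and the other 8 in the knockdown pair alone. The stretches of HEYL and PRRT1B printed above belong to these tiles.

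On the hypomethylated side the largest value was at UCHL1, a ubiquitin hydrolase abundant in neurons (chr4:41258001-41259000, -78.9 points). ZNF292 followed with -77.4 points, the small GTPase RAC3 with -75.6, the oxytocin receptor OXTR with -73.5 and DGAT2, an enzyme of triglyceride synthesis, with -61.1. Then came LHB, a subunit of luteinizing hormone (-60.6), the pyridoxal kinase PDXK (-59.8), the retinoic acid receptor RARA (-59.4), the cytokine CTF1 (-58.9) and the developmental zinc finger gene SALL3 (-57.9). All 10 were listed in the knockdown pair, at -69.3 to -94.0 points, and none of the 10 in the knockout pair. A tile that a table leaves out was under its limits or not covered, and which of these holds is unknown.

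**Figure D4:**
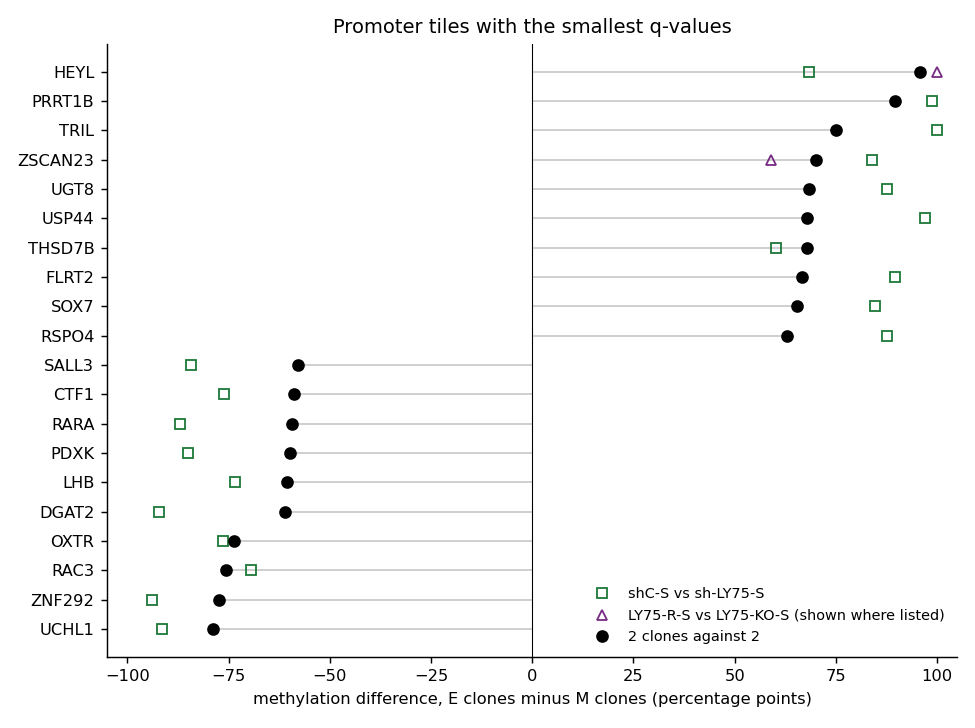
Methylation difference, E minus M clones in percentage points, of the 20 named promoter tiles with 2 clones against 2 (filled circles), in the knockdown pair (open squares) and in the knockout pair (open triangles, where listed). All 20 have a square and HEYL and ZSCAN23 alone have a triangle; each point is 1 deposited value without replicates.

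At LY75 itself, the targeted gene, 2 tiles at its start were hypermethylated in the E clones. The tile that holds the TSS and the first coding exon (chr2:160761001-160762000, 62 CpGs) had 42.9 points, and the next one into the gene (chr2:160760001-160761000, 41 CpGs, intron) had 30.7. In the knockdown pair they were listed at 87.7 and 70.5 points, and in the knockout pair neither was listed. Farther inside LY75, an intronic tile with 10 CpGs (chr2:160695001-160696000) had -25.6 points, and this one was listed in the knockout pair at -100 points and not in the knockdown pair. The other 3 mannose receptor family genes had no listed promoter tile with all clones together. In the pairs' own tables, 2 genes of the family were hypermethylated in the knockdown pair and 1 was hypomethylated in the knockout pair.

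Of all protein-coding genes with a promoter tile that the assay can reach, 2972 of 17325 had a listed promoter tile (17.2%). By their largest tile 1653 were hypermethylated (9.54%) and 1319 hypomethylated (7.61%), and 141 had tiles of both directions. These percentages are the background beside which the gene lists below are read; genes with more reachable tiles have more chances to be listed, so the share of a list's reachable promoter tiles that were listed, called its tile share, is given too, beside 6.48% over all promoters. Members of a list that lie close together can share a tile.

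Epithelial marker genes were listed in 6 of 18 cases, 5 of them hypermethylated in the E clones, with a tile share of 13.8%. CDH1, the adherens junction protein E-cadherin, had 43.2 points at its TSS, while the paper describes E-cadherin expression as induced on LY75 depletion. The keratin gene KRT7 had 100 points at its TSS and KRT8 49.2 points in an intron 860 bp from its TSS. OVOL1, a transcription factor that maintains epithelial identity, had 3 hypermethylated tiles (25.2, 43.8 and 50.1 points), and the splicing factor ESRP1 had 2 (26.4 and 31.4 points), while OVOL2 had -25.8 points. All 9 tiles were listed in the knockdown pair and none of the 9 in the knockout pair. In the pairs' own tables, 8 genes of the list were hypermethylated and 2 hypomethylated in the knockdown pair, and 1 and 0 in the knockout pair.

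Mesenchymal markers were listed in 4 of 12 cases, 2 in each direction, with a tile share of 15.8%. FOXC2, a forkhead factor of mesenchyme, had -75.4 points at its TSS and -27.9 points downstream. ZEB2, a repressor of E-cadherin, had -53.4 and -47.4 points. TWIST1, a basic helix-loop-helix factor of EMT, had 44.3 points at its TSS and was the only gene of the list in both single comparisons, with 33.6 and 60.2 points. CDH2, N-cadherin, had 34.8 points in an intron 1094 bp from its TSS. VIM, FN1, ZEB1, SNAI1 and SNAI2 were among the markers with no listed promoter tile with all clones together. In the pairs' own tables, 2 genes of the list were hypermethylated and 5 hypomethylated in the knockdown pair, and 2 and 0 in the knockout pair.

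The study selected 10 genes on these samples, 1 of them given as RAMP1 and elsewhere as RAMP2, and 7 of the 11 names had listed promoter tiles, a count that is no independent evidence because of that selection. RAMP2, a partner of the calcitonin receptor-like receptor, had 74.1 points, JMJD8 57.3 and 34.5, and HOOK1, a microtubule-linked cargo adaptor, 25.6. Hypomethylated were EVX2 (-83.9 and -27.8 points), CEND1, a gene of neuronal cell-cycle exit (-74.6), and IFFO1, of the intermediate filament family (-43.9, -45.5 and -42.5). APC2, a relative of the β-catenin regulator APC, had -31.3 points at its TSS and 26.6 points 1713 bp into the gene. CEND1 was listed in both single comparisons (-78.4 and -50.5 points) and the other 6 in the knockdown pair alone. RAMP1, WNT3, CLDN5 and KLF4 had none with all clones together. In the pairs' own tables, 4 of the 11 names were hypermethylated and 6 hypomethylated in the knockdown pair, and 1 and 3 in the knockout pair.

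The genes of transcription factors of embryonic patterning were listed often, in 30.0 to 56.4% of the genes of each of 7 lists against 17.2% over all genes. HOX genes, which lie in 4 clusters and set positional identity, had a listed promoter tile in 22 of 39 cases, 6 hypermethylated and 16 hypomethylated, and 16.5% of their reachable promoter tiles were listed. Other homeobox genes followed with 56 of 125 (20 hypermethylated, 36 hypomethylated; 13.5% of tiles). Forkhead genes had 15 of 50 (3 and 12), T-box genes 7 of 16 (1 and 6), SOX genes 7 of 18 (3 and 4) and GATA and ZIC genes 6 of 11 (1 and 5). Their tile shares were 13.3% for forkhead, 12.7% for T-box, 12.3% for SOX, 18.0% for GATA and ZIC and 17.5% for PAX genes. PAX genes, 5 of 9, were the exception in direction, with 3 hypermethylated and 2 hypomethylated, although 7 of their 11 listed tiles were hypomethylated. In 6 of the 7 lists hypomethylated genes therefore outnumbered hypermethylated ones, while over all genes the hypermethylated were the more numerous. Hypomethylated genes were the more numerous in 5 of the 7 lists at 50 points or more. PAX genes then joined these lists, and SOX genes and GATA and ZIC genes left them. With promoters of 5 kb the number of such lists was also 5. At 50 points or more the hypomethylated genes were 5 HOX, 5 other homeobox, 5 forkhead, 1 SOX, 1 T-box, 1 PAX and 0 GATA and ZIC genes.

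**Figure D5:**
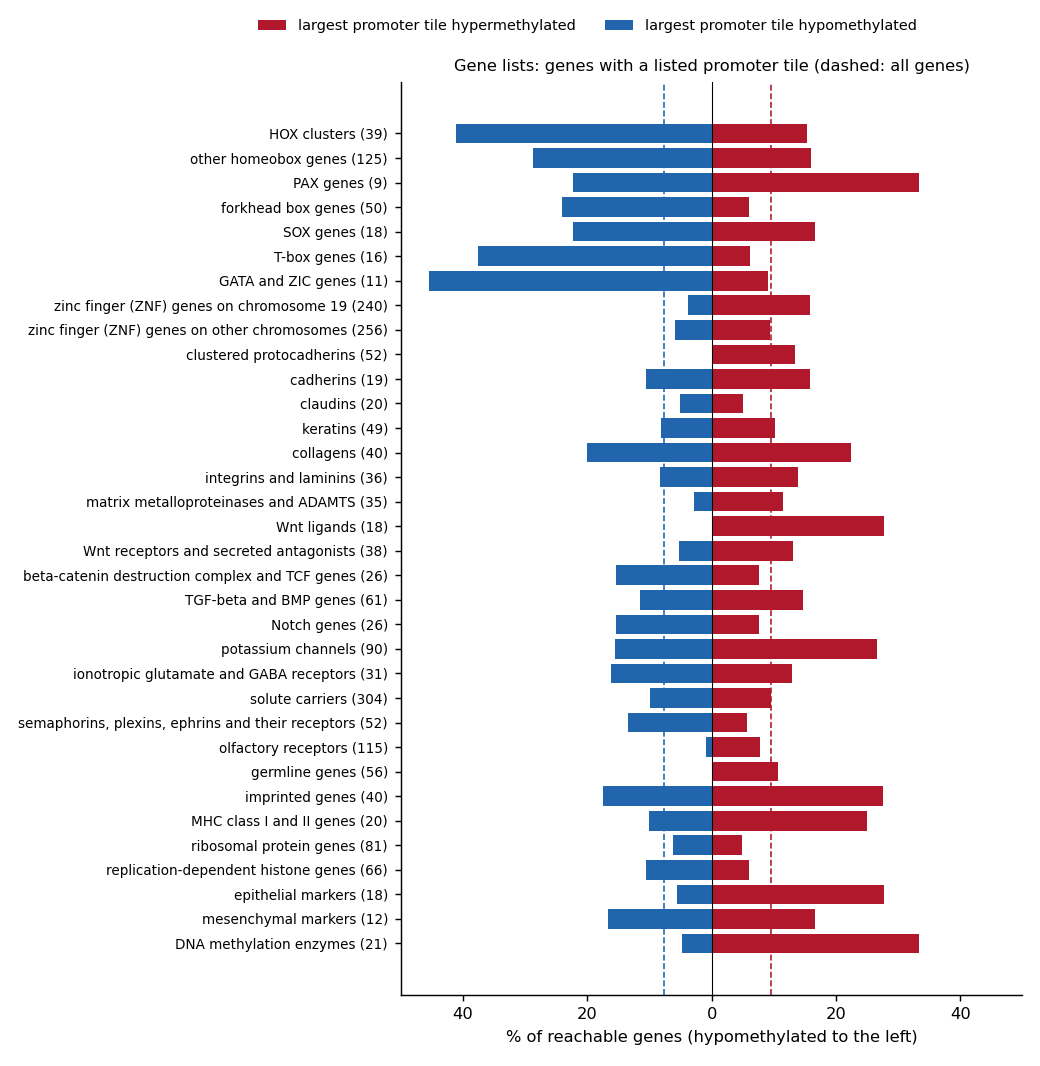
Percentage of genes in each list whose largest promoter tile was hypermethylated (red, right) or hypomethylated (blue, left) in the E clones, with the number of genes that the assay can reach in parentheses. Dashed lines are the values over all genes, 9.54% and 7.61%; the bars of HOX, T-box and GATA and ZIC genes reach farthest to the left.

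Within the HOX genes the clusters differed in their values, a split made after seeing them. In the HOXD cluster on chromosome 2, 7 of 9 genes were hypomethylated and all 11 listed tiles had negative differences, from HOXD13 (-37.7 points), HOXD11 (-51.3), HOXD10 (-40.5), HOXD9 (-72.3) and HOXD8 (-82.1) to HOXD3 (-66.2) and HOXD1 (-28.9). The neighbouring EVX2 had -83.9 points, the lowest value of the other homeobox genes. In HOXA 3 genes were hypermethylated and 4 hypomethylated, with HOXA10 at 42.9 points and HOXA11 at -45.8, in HOXC 3 and 3, with HOXC11 at 43.4 and HOXC8 at -48.9, and in HOXB 0 and 2 of 10.

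Among other homeobox genes EVX2 was followed by VSX1, an eye gene (-65.6 points), IRX5 (-61.6), OTX1 (-53.6) and ISL2 (-51.6) on the hypomethylated side, and VAX2 (53.7), EN1 (50) and DLX4 (47.8) led the hypermethylated side. Forkhead genes with low values were FOXC2 (-75.4), FOXF2 (-65.0), FOXP1 (-57.4), FOXD3 (-53.7) and FOXL2 (-50.8), while FOXA2, a pioneer factor of endoderm, had 45.1 points. SOX2, a factor of stem cells, had -50.8 points, PAX6 -58.5, TBX1 -65.4, GATA6 -49.2 and GATA4 -48.5. Hypermethylated genes of these lists included SOX7 (65.3), GATA2 (54.2), SOX8 (47.2) and PAX1 (36.2).

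These hypomethylated tiles, like listed promoter tiles in general, were listed mainly in the knockdown pair. Of the 29 listed HOX tiles 23 were listed in the knockdown pair alone, 5 in both and 1 in the knockout pair alone. In the pairs' own tables, 6 HOX genes were hypermethylated and 23 hypomethylated in the knockdown pair, and 7 and 8 in the knockout pair. Over all protein-coding genes these counts were 3250 and 2644 in the knockdown pair, and 1458 and 1306 in the knockout pair. For other homeobox genes the same counts were 33 and 61 in the first and 17 and 17 in the second, and for forkhead genes 8 and 20, and 6 and 5. With the tiles that the knockout pair also listed, an alternative chosen after seeing the data, 6 HOX genes were hypomethylated and 1 hypermethylated. These directions are those with 2 clones against 2, and HOXA7, counted as hypomethylated, had 37.9 points in the knockout pair. HOXC5 and HOXC6 shared 1 hypomethylated tile (-27.8 points), while the largest promoter tile of HOXC5 was hypermethylated (29.7). With tiles chosen in this way, the hypomethylated and hypermethylated counts were 1 and 5 for other homeobox genes, where the direction turned, and 2 and 2 for forkhead genes.

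Zinc finger genes of the ZNF series on chromosome 19, most of which code for transcriptional repressors in clusters, went the other way. Of 240 such genes 47 had a listed promoter tile (19.6%), 38 hypermethylated and 9 hypomethylated, and 7.98% of their tiles were listed. ZNF850 had 77.2 points and ZNF274 74.6, against ZNF329 with -57.1 and ZNF414 with -54.6. ZNF genes elsewhere had 39 of 256 (15.2%; tile share 5.42%), 24 hypermethylated and 15 hypomethylated, with ZNF436 (69.4) and ZNF292 (-77.4). In the knockdown pair 68 chromosome 19 ZNF genes were hypermethylated and 14 hypomethylated, against 3250 and 2644 over all genes. In the knockout pair the counts were 14 and 18, against 1458 and 1306 over all genes.

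In 3 lists with more than 1 listed gene, every listed gene was hypermethylated by its largest tile. Clustered protocadherins, adhesion proteins that give neurons their identity, had 7 of 52 genes listed (13.5%), and genes of the germline 6 of 56 (10.7%), both under the 17.2% of all genes. Wnt ligand genes had 5 of 18 (27.8%), although by tiles 3 of their 9 listed tiles were hypomethylated. The tile shares were 6.61%, 3.41% and 7.59% in this order. In the knockdown pair's own table, the hypermethylated and hypomethylated genes were 12 and 3, 18 and 5, and 7 and 3 in the same order. For the knockout pair they were 3 and 1, 4 and 2, and 2 and 2. These 3 lists were singled out after their values had been seen. PCDHA1 had 45.1 points, WNT7B 69.1, WNT1 36.9 and DPPA5, a gene of pluripotent cells, 86.0. Olfactory receptor genes, 10 of 115 (8.70%), were hypermethylated in 9 cases, with OR7A17 at 100 points in all 3 tables and a tile share of 5.33%.

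Of the genes of adhesion and matrix, collagens were listed in 17 of 40 cases, 9 hypermethylated and 8 hypomethylated, and 13.6% of their tiles were listed. The fibrillar collagen genes COL1A2 and COL1A1 had -63.4 and -57.2 points, and COL8A2 and COL9A2 had 55.3 and 54.3. Cadherins were listed in 5 of 19 cases (3 and 2), with CDH4 at 50.6 and CDH15 at -52.9 points. Keratins had 9 of 49 (5 and 4), integrins and laminins 8 of 36 (5 and 3), with ITGB2 at 100 points and ITGA8 at -38.4, and matrix metalloproteinases and ADAMTS 5 of 35 (4 and 1). Claudins, the tight junction proteins, had 2 of 20. The tile shares were 10.2% for cadherins, 10% for keratins, 10.7% for integrins and laminins, 5.77% for metalloproteinases and 3.17% for claudins.

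In Wnt signalling, receptors and secreted antagonists had 7 of 38 (5 hypermethylated and 2 hypomethylated), with RSPO4 (62.8 points) and FZD9 (44.4) against SFRP5 (-37.2) and RSPO3 (-31.6). The β-catenin destruction complex and TCF genes had 6 of 26 (2 and 4), with LEF1, a transcription factor that β-catenin binds, at -50.1 points. TGF-β and BMP genes had 16 of 61 (9 and 7), with NODAL at 44.3 and the ligand TGFB2 at -47.8. Notch genes had 6 of 26 (2 and 4), in which the ligand DLL4 (100 points) and its effector HEYL (95.8) were hypermethylated and HEY2 (-36.5) and DLK1 (-38.0) hypomethylated. DLL4 and HEYL were listed in both single comparisons, DLL4 at 65.4 and 100 points. The tile shares were at or near the 6.48% of all promoters, or lower, for Wnt receptors (6.25%), the destruction complex (6.54%) and Notch genes (5.22%), and 7.58% for TGF-β and BMP genes. Gene lists that the study made on these samples were listed in 24 of 77 cases for EMT (12 and 12), 22 of 68 for Wnt/β-catenin (12 and 10) and 19 of 39 for TGF-β (9 and 10), with tile shares of 7.89%, 8.93% and 10.6%, and are not independent evidence of a direction.

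Genes of excitable cells and of transport were listed in both directions. Potassium channel genes had 38 of 90 (24 hypermethylated and 14 hypomethylated; 13.6% of tiles), with KCNN3 at 85.0 and KCNIP3 at 82.6 points against KCNIP2 at -57.1. Ionotropic glutamate and GABA receptors had 9 of 31 (4 and 5). Solute carriers were near the background in number and balanced in direction, 59 of 304 (19.4%), 29 and 30, with SLC8A3 at 78.9 and SLC4A2 at -100 points. Semaphorins, plexins, ephrins and their receptors, the guidance molecules of axons and vessels, had 10 of 52 (3 and 7), with EPHB4 at -68.9. The tile shares were 9.90% for the receptors, 6.91% for solute carriers and 4.74% for the guidance molecules.

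Imprinted genes, which keep the methylation of the parent of origin, had 18 of 40 listed, 11 hypermethylated and 7 hypomethylated, and 14.1% of their tiles. DIRAS3, an imprinted tumour suppressor gene of the ovary, had 64.0 points and was listed at 100 and 47.9 points in the pairs, and L3MBTL1 had -47.1. MHC class I and II genes and their partners had 7 of 20 (5 and 2). There PSMB8 and PSMB9, immunoproteasome subunits that both have a TSS within 2 kb of the same tile, had 52.8 points. NLRC5, the activator of class I genes, had -74.2 in an intron 1532 bp from its TSS. Genes of DNA methylation itself had 8 of 21 (7 and 1), with the reader ZBTB33 at 74.3 points and the demethylating enzyme TET3 at -40.6. Neither pair had this lean: 5 genes were hypermethylated and 6 hypomethylated in the knockdown pair, and 2 and 4 in the knockout pair. ZBTB33 had the opposite sign in the knockdown pair. The tile shares of these lists were 13.6% for MHC genes and 10.8% for genes of DNA methylation. Ribosomal protein genes had 9 of 81 (11.1%; 4 and 5; tile share 3.88%), and replication-dependent histone genes, which are expressed in S phase, 11 of 66 (16.7%; 4 and 7; tile share 4.8%).

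MicroRNA genes had a listed tile within 2 kb in 108 of 831 cases (13.0% of those the assay can reach), 65 hypermethylated and 43 hypomethylated. The 2 hypomethylated genes with the largest values were MIR3074 (chr9:97850001-97851000, -80.2 points) and MIR192 (chr11:64659001-64660000, -73.3 points), and MIR4780 had 70.7 and MIR661 66.7 points. MIR3074 was listed at -73.7 and -88.8 points in the pairs, MIR192 at -47.6 and -33.0. Their mature sequences (RefSeq, GRCh38.p14), with the seed, bases 2 to 8, in capitals, show the arms that these loci can make; all 3 genes looked for were matched.
hsa-miR-192-5p: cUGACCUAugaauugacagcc
hsa-miR-192-3p: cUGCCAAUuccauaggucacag
hsa-miR-3074-5p: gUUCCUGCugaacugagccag
hsa-miR-3074-3p: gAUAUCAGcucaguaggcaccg
hsa-miR-4780: aCCCUUGAgccugaucccuagc

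No seed was shared among these 5 arms. The tiles lay upstream of MIR192 by 283 bp and of MIR3074 by 1625 bp, and 118 bp downstream of the start of MIR4780, and the levels of the microRNAs were not measured here.

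The 1275 tiles listed in neither single comparison were smaller in difference and richer in CpGs than the rest. In each pair they were under the limits or not covered, so smaller differences follow in part from how they were chosen. Their median was 31.3 points, and 553 (43.4%) lay below 30 points, against 24.1% of the other tiles. A minority was large, 104 tiles with 50 points or more and 1 with 100. They held a median of 24 CpGs against 19, and 21.9% had 40 or more CpGs against 15.6% of the others. Of these tiles 684 were hypermethylated and 591 hypomethylated. In promoters, 125 of 230 were hypomethylated (hypermethylated share 45.7%, 39.3 to 52.1%), and in intergenic DNA 57.1% (52.9 to 61.2%) of 543.

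By chromosome their part of the listed tiles ran from 4.52% on chromosome 14 and 4.53% on chromosome 15 to 7.996% on chromosome 16 and 7.74% on X, where 46 of 71 were hypermethylated. Promoters made up 40.8% of those on X against 18.0% of all. A directly adjacent tile was listed in a single comparison in 287 of the 1275 cases, and 988 had none. The 230 promoter tiles belonged to 242 genes.

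The promoter tiles of this kind with the smallest q-values were named. Hypermethylated were RBMS1, an RNA-binding protein gene (chr2:161263001-161264000, 34.4 points, q = 9.11e-131), the peptidase gene DPP7 (27.9), NHS on X (28.5), the Wilms tumour transcription factor WT1 (25.1) and FLRT2 (38.7). FLRT2 also holds the neighbouring tile among the largest of all, with 66.7 points. Hypomethylated were SERPINE2, a protease inhibitor (chr2:224904001-224905000, -30.2 points, q = 2.79e-145), the sodium pump regulator FXYD2 (-29.4), the complex I subunit NDUFV2 (-32.9), FNDC1 (-27.4) and MPP1 on X (-38.0). All 10 had differences of 25.1 to 38.7 points in size, and 7 of the 10 held a TSS. RBMS1 and FXYD2 had theirs 400 and 459 bp away, and NHS 1458 bp away. The stretches of RBMS1 and SERPINE2 printed above come from these tiles. Of all 3388 listed promoter tiles 230 (6.79%) were of this kind. Of the gene lists, solute carriers had 7 such tiles of 71, other homeobox genes 3 of 75 and imprinted genes 3 of 25. HOX (29 listed tiles), SOX (9), PAX (11) and T-box genes (9) had none, and neither had further lists such as collagens and cadherins. MicroRNA genes had 6 such tiles of 109.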

How the data were processed

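DNA of 4 SKOV3 clones was digested with MspI, converted with bisulfite and read by the authors in single reads of 50 bp, 1 library per clone. Per the labels, reads were trimmed with Trimmomatic; the submitters' processing notes name FastQC, Trim Galore 0.4.1, Bismark 0.16.1, methylKit and hg19. For every listed tile of 1000 bp, the authors' deposited score is the methylation difference in points, with its p-value and q-value beside it. Tiles under 25 points or with q of 0.01 or more are not listed, a stricter limit on q than that of the paper's methods. The tables hold comparisons made by the authors and no value per library. The coverage minimum and the pooling of the libraries of each side are not given in the sources used here, so depth is unknown. No test between conditions could be made without values per library.

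Every row of the table with all 4 clones was used. Positive differences were read as hypermethylation in the E clones, since 7 of 7 genes with a listed promoter tile, out of 10 whose direction the paper states (RAMP2 as in its discussion), had that direction; for the knockout pair the sign rests on the composition of the comparison of 2 clones against 2. Tiles were placed on GRCh37 with basic transcripts of GENCODE release 44 for 19215 protein-coding and 1288 microRNA genes with RefSeq symbols. CpGs and MspI fragments of 40 to 220 bp were counted in the reference by functions checked on simulated data. Shares carry 95% Wilson intervals, which cover counting error only. A gene was named by rule: 10 promoter tiles per direction of 50 points or more with the smallest q-values, ties by size, 5 per direction among tiles in neither single comparison, up to 2 genes per direction and list, LY75, the genes selected by the study, EMT markers and the longest runs; all listed members of the developmental lists were held as well, and those named beside the 2 largest were chosen after their values were seen. The members, the 40 lists and the rules were chosen with earlier results of these data known. There were 10 kinds of alternative. The work was done in Python 3.11.15 with matplotlib 3.10.9, scipy 1.17.1, pandas 2.3.3 and numpy 2.4.6.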

Additional observations from a re-analysis of the deposited data

Results flagged for a closer look

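Among the named promoter tiles, 10 were listed in the single comparisons with opposite signs, so the value with 2 clones against 2 stands for no common direction. For each, the first value is that of the knockdown pair and the second that of the knockout pair, in percentage points, and the difference between them was not tested. HOXA6 had -60.9 and 65.1 points, HOXA7 -52.7 and 37.9, and HOXC6 27.1 and -77.8. FOXC1 had -80.7 and 34.0 points and SOX15 -48.5 and 47.7. GDF7, a BMP ligand, had -71.4 and 52.1 points, PMEPA1 -100 and 33.6 upstream of its TSS, and MAP4K1 100 and -25.5. TAPBP, which loads peptides onto MHC class I, had -50 and 29.1 points, and the ribosomal protein gene RPL10 -28.6 and 40.8. With all clones together HOXA6, SOX15, RPL10 and MAP4K1 were hypermethylated and the other 6 hypomethylated.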

How the results depend on the processing

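At 50 points or more the listed tiles fell from 20986 to 4531, promoter tiles from 3388 to 635, genes with a promoter tile from 2972 to 636, tiles in neither single comparison from 1275 to 104 and the listed share of reachable tiles from 5.20% to 1.09%. Hypermethylated shares kept their side of 50% in all alternatives run. Over all tiles, from 64.99%, the share moved beyond its counting interval to 67.9% at 50 points or more, 65.7% at q under 1e-10 and 66.6% with 10 or more CpGs. For promoter tiles, from 55.3%, it moved to 59.4% at 50 points or more, 57.7% with promoters of 5 kb and 58.3% with all genes of the annotation. The listed share of reachable tiles was 4.67% with fragments of 30 to 300 bp and 5.07% with 10 or more CpGs. The other 26 alternatives for these results moved counts by less than 1.5 times or shares within their intervals. No paired analysis was possible because the tables hold no value per library, and for the same reason no clone could be left out. Depth is unknown, so nothing here can be weighed by coverage.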

Other observations

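The value with 2 clones against 2 was not always between those of the pairs. Of the 4250 tiles listed in all tables, 913 (21.5%) had a difference outside the range of both single comparisons, and 480 had a larger absolute difference than either. Of the tiles also listed in the knockdown pair alone, 767 of 12801 (5.99%) had a larger absolute difference than in that pair, and of those of the knockout pair alone, 382 of 2660 (14.4%). KRT7 had 100 points against 78.3 in the knockdown pair, and SLC4A2 -100 points against -34.2 and -26.9.

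A few named tiles had the opposite sign of every single comparison that listed them. The claudin gene CLDN9 had -30.3 points, with 28.7 and 29.4 in the pairs. ZBTB33 had 74.3 points against -41.9 in the knockdown pair, DVL1 38.4 against -42.1 there, and the stress cytokine gene GDF15 52.0 against -47.9 in the knockout pair. Reads per tile and the CpGs that entered each table are not given, and their part in these values was not tested.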
